A study of Mus musculus with 9 samples.

Results

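The genes described here are thrombospondin-1 (Thbs1), versican (Vcan) and 8 matrix genes related to them in mouse macrophages, fibronectin (Fn1), osteopontin (Spp1), transglutaminase 2 (Tgm2), syndecans (Sdc1, Sdc3 and Sdc4) and the matrix receptors Cd44 and Cd47. They are 10 of the 53465 genes in the count table, each on a single row, found by their symbol. The genes were selected with the fold changes of all 3 comparisons between the groups already known. Their levels and fold changes are therefore given as a description, with no p-value, and where one of them is said to be called, that states only which side of the thresholds its value fell on.

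Bone marrow-derived macrophages (BMDMs) from male wild-type C57BL/6 mice (of the J substrain, by the study's methods), grown with CSF1 at 50 ng/ml, were left untreated (UNX, 3 libraries), exposed to medium conditioned by pulmonary artery adventitial fibroblasts of control neonatal calves (CO-CM, 3 libraries), or exposed to medium conditioned by fibroblasts of calves with hypoxia-induced pulmonary hypertension (PH-CM, 3 libraries). The comparisons ask how BMDMs respond to the medium of each kind of fibroblast, and how the response to PH-CM differs from that to CO-CM. Each kind of medium was a pool from several fibroblast populations. The replicates therefore repeat the macrophage culture, with no calf standing behind a single library, and p-values measure only the spread between these cultures. The labels state the exposure both as 16 h and as 24 h, and the study's methods give a time between these. The libraries held between 62017933 and 84314201 counted reads, and all 10 genes passed the filter on low counts. Even numbers made up 81.4% to 83.8% of the low counts of a library, so the mates of a read pair appear to have been counted separately, and there are more counted reads than fragments. In such bulk libraries, fewer cells expressing a gene and less RNA per cell cannot be told apart.

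Thrombospondin-1 is a matricellular protein, one that is secreted into the matrix and signals to cells rather than building fibres. It binds CD47, CD36, integrins and heparan sulfate, and it can release TGF-beta from its latent complex. Versican is a large chondroitin sulfate proteoglycan that binds hyaluronan, whose main receptor on leukocytes is CD44. Fibronectin and osteopontin are ligands of integrins, transglutaminase 2 cross-links fibronectin, and syndecans are transmembrane carriers of heparan sulfate that act as co-receptors for matrix and growth factors.

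Levels between libraries are given as CPM (reads of a gene scaled to a library of fixed size), with the library size corrected for composition by TMM factors. Fold changes come from one edgeR quasi-likelihood fit of all 9 libraries and are log2 values with their standard errors (SE). Calls required a false discovery rate (FDR, over the 11950 genes tested) no greater than 0.05 together with a 1.2-fold or larger change. Against UNX, 7 of the 10 genes were called higher and 3 lower in PH-CM, where 31.3% of all genes tested were called higher and 31.7% lower. In CO-CM against UNX, 5 were called higher and 2 lower, beside 28.0% and 28.9% of all genes tested. Between PH-CM and CO-CM, 6 were called higher and 1 lower in PH-CM, beside 12.2% and 15.0%. The 3 libraries of each group did not overlap for 10 of the 10 genes in PH-CM against UNX, for 8 in CO-CM against UNX and for 7 in PH-CM against CO-CM. The same held for 77.7%, 72.0% and 50.2% of all genes tested. Since the genes were selected on these comparisons, nothing is read from their counts. The median log2 fold change of the 10 genes was 0.32, 0.25 and 0.61 in these comparisons, beside 0.0072, 0.00024 and -0.0064 over all genes tested. The comparisons share their groups, so they are not independent of each other.

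**Figure D1:**
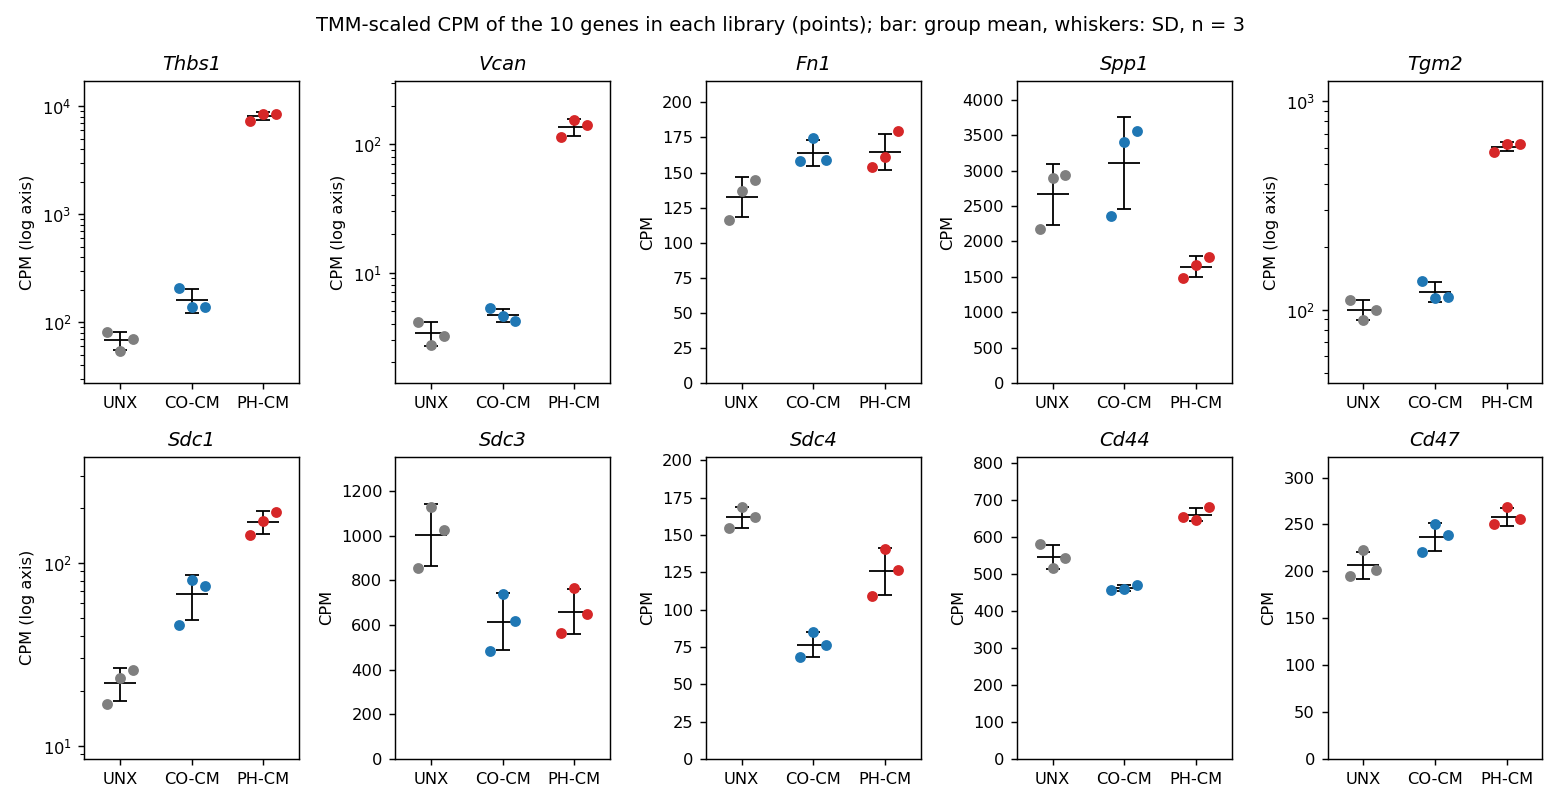
TMM-scaled CPM of each of the 10 genes in the UNX, CO-CM and PH-CM libraries. Points are libraries, horizontal bars are group means and whiskers are SDs (n = 3), and panels with a log axis say so. Thbs1 sits between 7353 and 8577 CPM in the PH-CM libraries and between 54.5 and 208 CPM in the other libraries.

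Thbs1 (ENSMUSG00000040152, chromosome 2, 118111876 to 118127133 on the plus strand of GRCm38, 22 merged exons) encodes the matricellular protein thrombospondin-1 and had the largest fold change of the 10 in PH-CM. In the UNX libraries it was at 80.8, 54.5 and 70.7 CPM, in CO-CM at 208, 138 and 138 CPM, and in PH-CM at 7353, 8577 and 8495 CPM. All PH-CM libraries lay above all CO-CM libraries, and those above all UNX libraries. The group means were 68.7 ± 13.3 CPM in UNX, 162 ± 40.4 in CO-CM and 8142 ± 684 in PH-CM (SD, n = 3). The log2 fold change was 6.89 (SE 0.22) for PH-CM against UNX, a 119-fold difference, and 5.65 (SE 0.21) for PH-CM against CO-CM, a 50.4-fold difference. For CO-CM against UNX it was 1.24 (SE 0.18), or 2.35-fold. Within replicate numbers 1, 2 and 3, the log2 ratio of PH-CM to UNX was 6.51, 7.30 and 6.91. Thbs1 took 0.00708% of the counted reads in UNX, 0.0159% in CO-CM and 0.805% in PH-CM. Thbs1 shares 208 exon bases with Gm29233, a lincRNA gene on the opposite strand with 100 reads over the 9 libraries, beside 1615150 reads of Thbs1.

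Vcan (ENSMUSG00000021614, chromosome 13, 89655312 to 89742509, minus strand, 16 merged exons) encodes the hyaluronan-binding proteoglycan and had few reads outside PH-CM. The UNX libraries held 270, 208 and 278 reads and the CO-CM libraries 360, 308 and 300, whereas the PH-CM libraries held 7670, 9657 and 8921. In CPM these were 4.16, 2.75 and 3.23 in UNX, 5.26, 4.60 and 4.21 in CO-CM, and 114, 155 and 141 in PH-CM. Every PH-CM library was above every other library, whereas the lowest CO-CM library was only just above the highest UNX library. On the log2 scale the fold change was 5.35 (SE 0.16) for PH-CM against UNX, or 40.7-fold, and 4.87 (SE 0.16) for PH-CM against CO-CM, or 29.1-fold. CO-CM against UNX gave 0.48 (SE 0.17), and this call was lost with library size alone as the scale and when UNX replicate 2, UNX replicate 3 or CO-CM replicate 1 was left out (range 0.34 to 0.63 over all libraries left out in turn). In PH-CM, Vcan like Thbs1 was lowest in replicate 1 and highest in replicate 2, while in UNX and CO-CM both genes were highest in replicate 1.

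Fn1 (ENSMUSG00000026193, chromosome 1, 71585520 to 71653200, minus strand, 45 merged exons) encodes an adhesive glycoprotein of the matrix and differed little between the groups. It was at 116, 137 and 145 CPM in UNX, at 158, 175 and 159 CPM in CO-CM, and at 154, 161 and 179 CPM in PH-CM. Both kinds of conditioned medium lay above UNX and overlapped with each other. The log2 fold change against UNX was 0.31 (SE 0.084) in PH-CM and 0.31 (SE 0.084) in CO-CM, and PH-CM against CO-CM gave 0.0062 (SE 0.084). This last value changed sign in 4 of 19 alternatives. The call in PH-CM against UNX was lost without UNX replicate 1 (as low as 0.22) or PH-CM replicate 3, and that in CO-CM against UNX without UNX replicate 1 or CO-CM replicate 2 (as low as 0.21). Both were lost with library size alone.

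Spp1 (ENSMUSG00000029304, chromosome 5, 104435118 to 104441050, plus strand, 8 merged exons) encodes an integrin-binding phosphoprotein made in large amounts by macrophages, and was the only one of the 4 secreted genes that was lowest in PH-CM. UNX libraries held it at 2171, 2888 and 2943 CPM, CO-CM libraries at 2360, 3396 and 3552 CPM, and PH-CM libraries at 1481, 1673 and 1774 CPM. All PH-CM libraries were below all others, and UNX and CO-CM overlapped. PH-CM against UNX gave a log2 fold change of -0.70 (SE 0.16), and PH-CM against CO-CM one of -0.92 (SE 0.16), so that UNX was 1.62-fold and CO-CM 1.89-fold above PH-CM. CO-CM against UNX gave 0.22 (SE 0.16), which was not called, and the call was made at 0.38 without CO-CM replicate 1. Spp1 was lowest in replicate 1 and highest in replicate 3 in each of the 3 groups. Within replicate numbers the log2 ratio of PH-CM to UNX was -0.55, -0.79 and -0.73. Spp1 shares 309 exon bases with Gm42793, an annotated locus on the same strand with 934 reads beside 1570221 of Spp1.

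Tgm2 (ENSMUSG00000037820, chromosome 2, 158116402 to 158146436, minus strand, 14 merged exons) encodes the cross-linking enzyme. Its UNX levels were 111, 88.9 and 100.2 CPM, its CO-CM levels 137, 114 and 116 CPM, and its PH-CM levels 573, 625 and 622 CPM. The PH-CM libraries formed a group of their own, and the CO-CM libraries lay just above the UNX libraries. Fold changes were 6.06-fold for PH-CM against UNX (log2 2.60, SE 0.096) and 4.96-fold for PH-CM against CO-CM (log2 2.31, SE 0.095). CO-CM against UNX gave 0.29 (SE 0.091), a call that was lost without UNX replicate 2, UNX replicate 3 or CO-CM replicate 1 (range 0.19 to 0.35), with library size alone and with other filters on low counts. Tgm2 shares 370 exon bases with Rprd1b on the opposite strand, which had 20404 reads beside 164693 of Tgm2. The counting is described without a strand option, so reads on these bases cannot be assigned to either gene.

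Per length of exon, Thbs1 took the place of Spp1 as the highest of the 4 secreted genes in PH-CM. The authors' RPKM (reads scaled to the length of the exons as well as to the library size) allows levels of different genes to be compared within a library. In UNX, Spp1 had a mean RPKM of 1664 ± 248 (SD, n = 3) and ranked 17 among 23660 genes above 0, whereas Thbs1 had 11.7 ± 2.38 and ranked 4178. In PH-CM, Thbs1 had 1326 ± 93.5 RPKM and ranked 19 of 23684, and Spp1 had 986 ± 77.7 and ranked 27. Vcan went from an RPKM of 0.241 (rank 13087) in UNX to 9.34 (rank 4554) in PH-CM, where it was still below Fn1 at 13.9. Of the summed RPKM of Thbs1, Vcan, Fn1 and Spp1, Thbs1 made up 0.714% in UNX, 1.48% in CO-CM and 56.8% in PH-CM. Spp1 made up 98.6%, 97.8% and 42.2%. The share of Thbs1 ran from 55.9% to 57.6% over the PH-CM libraries and did not exceed 2.32% in any other library. The summed RPKM itself was 1688 ± 247 in UNX, 1883 ± 351 in CO-CM and 2335 ± 168 in PH-CM.

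**Figure D2:**
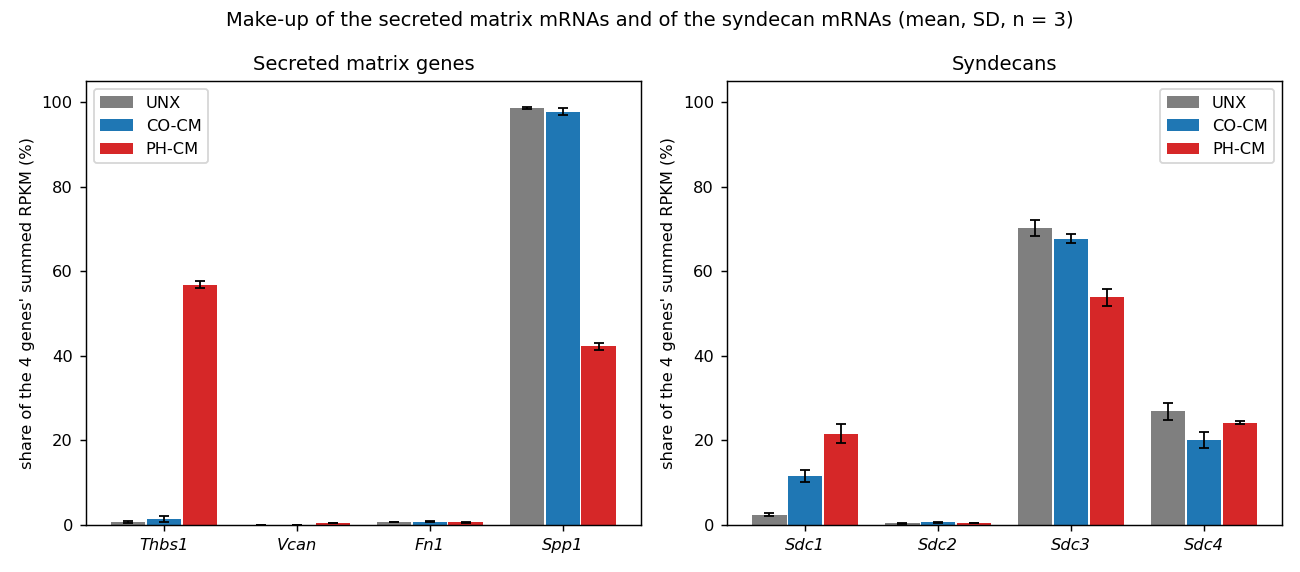
Share of each gene in the summed RPKM of the 4 secreted matrix genes (left) and of the 4 syndecans (right). Bars are means over the 3 libraries of a group and whiskers are SDs. Thbs1 takes 56.8% of the secreted set in PH-CM against 0.714% in UNX, and Sdc1 takes 21.6% of the syndecans against 2.43%.

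The syndecans did not move together. Sdc1 (ENSMUSG00000020592, chromosome 12, 8771323 to 8793715, plus strand), known best from epithelial and plasma cells, was at 16.9, 23.4 and 25.9 CPM in UNX, at 45.8, 80.8 and 75.1 CPM in CO-CM, and at 143, 170.0 and 191 CPM in PH-CM. Its 3 groups did not overlap, with UNX lowest and PH-CM highest. Sdc1 had a log2 fold change of 2.92 (SE 0.22) for PH-CM against UNX, or 7.58-fold, 1.60 (SE 0.22) for CO-CM against UNX, or 3.04-fold, and 1.32 (SE 0.21) for PH-CM against CO-CM, or 2.50-fold.

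Sdc3 (ENSMUSG00000025743, chromosome 4, 130792537 to 130826319, plus strand), the most abundant syndecan per length in every group, was lower in both conditioned media. It was at 853, 1127 and 1027 CPM in UNX, at 482, 738 and 619 CPM in CO-CM, and at 564, 767 and 647 CPM in PH-CM. The UNX libraries were the 3 highest, and the conditioned media overlapped. The log2 fold change was -0.60 (SE 0.16) for PH-CM against UNX, -0.71 (SE 0.16) for CO-CM against UNX, and 0.10 (SE 0.16) for PH-CM against CO-CM, the last of which changed sign in 2 of 19 alternatives. Sdc3 shares 415 exon bases with Gm26716 and 48 with Gm12970, antisense genes with 0 and 44 reads.

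Sdc4 (ENSMUSG00000017009, chromosome 2, 164424247 to 164443887, minus strand), the syndecan found in focal adhesions, had its lowest level in CO-CM. Libraries were at 155, 169 and 162 CPM in UNX, at 68.4, 85.0 and 76.5 CPM in CO-CM, and at 109, 141 and 127 CPM in PH-CM. The 3 groups were separate, with PH-CM between CO-CM and UNX. Its log2 fold change was -1.08 (SE 0.097) for CO-CM against UNX, which is a 2.11-fold lower level, -0.37 (SE 0.096) for PH-CM against UNX, and 0.71 (SE 0.097) for PH-CM against CO-CM.

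By RPKM, Sdc1 made up 2.43% ± 0.341 of the syndecan mRNA in UNX, 11.6% ± 1.42 in CO-CM and 21.6% ± 2.24 in PH-CM (SD, n = 3). Sdc3 made up 70.3% ± 1.88, 67.7% ± 1.11 and 53.8% ± 2.12. Sdc4 made up 26.9% ± 1.99, 20.2% ± 1.92 and 24.2% ± 0.331. Sdc2, the remaining syndecan and not one of the 10 genes, was at most 0.650% in any library. The summed syndecan RPKM was 244 ± 24.7 in UNX, 148 ± 26.2 in CO-CM and 202 ± 24.2 in PH-CM, so the mean sum was highest in UNX, where the share of Sdc1 was smallest.

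Cd44 (ENSMUSG00000005087, chromosome 2, 102811141 to 102901665, minus strand, 19 merged exons), the hyaluronan receptor that also binds osteopontin, had groups that were narrow and separate. It was at 581, 515 and 544 CPM in UNX, at 457, 460.1 and 471 CPM in CO-CM, and at 654, 647 and 681 CPM in PH-CM. CO-CM was lowest and PH-CM highest, with no overlap in any comparison. The log2 fold change was 0.51 (SE 0.052) for PH-CM against CO-CM, or 1.43-fold, 0.27 (SE 0.052) for PH-CM against UNX and -0.24 (SE 0.052) for CO-CM against UNX. The last falls short of the 1.2-fold limit and was called with library size alone, with other filters and without UNX replicate 2. The call in PH-CM against UNX is at the limit and was lost with the same scale and filters and without PH-CM replicate 3 or either of UNX replicates 2 and 3. Counts per gene do not separate the splice forms of Cd44.

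Cd47 (ENSMUSG00000055447, chromosome 16, 49800533 to 49915010, plus strand), the thrombospondin-1 receptor that is also the ligand of SIRP-alpha, differed little between the groups. It was at 195, 223 and 201 CPM in UNX, at 221, 250.5 and 239 CPM in CO-CM, and at 250.2, 269 and 255 CPM in PH-CM. PH-CM lay above UNX, while CO-CM overlapped with both. Its log2 fold change was 0.32 (SE 0.064) for PH-CM against UNX, 0.20 (SE 0.064) for CO-CM against UNX and 0.12 (SE 0.064) for PH-CM against CO-CM. In no alternative did its direction change.

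**Figure D3:**
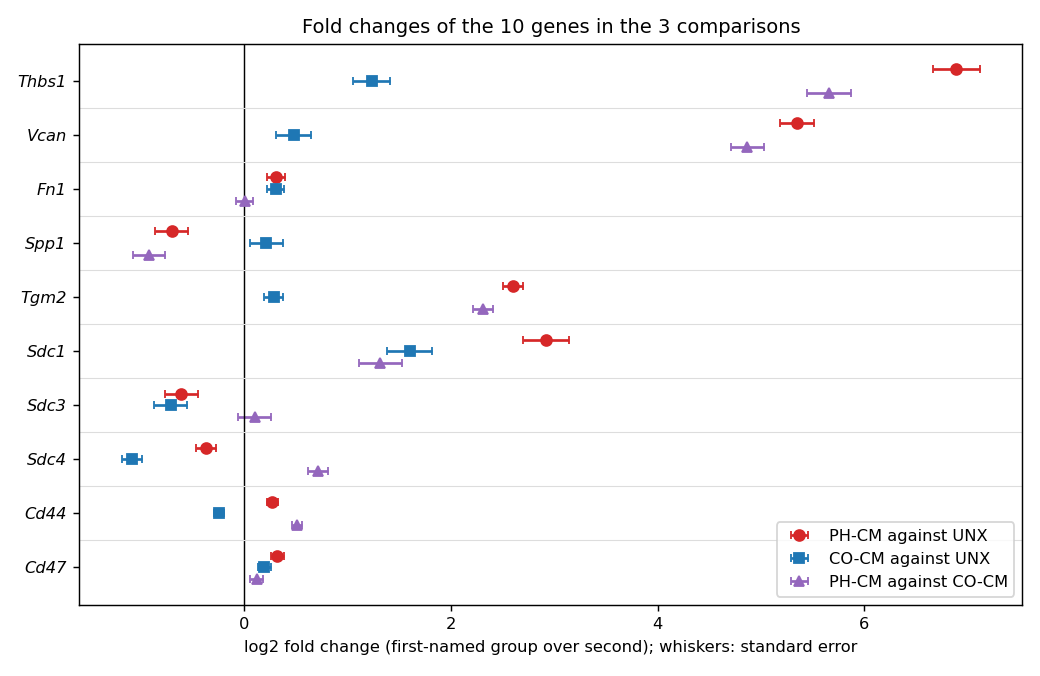
Log2 fold changes of the 10 genes in the 3 comparisons, with the first-named group over the second and the standard error as whiskers. Thbs1 and Vcan lie at 6.89 and 5.35 in PH-CM against UNX, Spp1 lies below 0 in both comparisons of PH-CM, and Fn1 and Cd47 do not exceed 0.32.

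The order of levels per length can be read from the RPKM. In UNX it was Spp1 (1664), Sdc3 (172), Cd44 (83.1), Sdc4 (65.4), Cd47 (40.3), Tgm2 (22.4), then Fn1 and Thbs1 (11.7 each, overlapping), Sdc1 (5.96) and Vcan (0.241). In CO-CM, Thbs1 (26.2), Tgm2 (26.1) and Sdc4 (29.5) overlapped, and so did Sdc1 (17.3) and Fn1 (13.8). In PH-CM the order was Thbs1 (1326), Spp1 (986), Tgm2 (130.3), Sdc3 (109), Cd44 (96.5), Sdc4 (48.8), Cd47 (48.4), Sdc1 (43.5), Fn1 (13.9) and Vcan (9.34). Neighbours from Tgm2 to Cd44 overlapped there, as did Sdc4, Cd47 and Sdc1. Tgm2 ranked 2347 among all genes in UNX and 305 in PH-CM, and Sdc1 ranked 6310 and 1086. The RPKM of Cd47 rests on an exon length of 5277 bases, where the annotation used here gives 6276.

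Several of these genes varied with the replicate number, and the labels do not say what that number marks. Replicate 1 was the lowest library in all 3 groups for Fn1, Spp1, Sdc1, Sdc3, Sdc4 and Cd47. Replicate 2 was the highest in all 3 groups for Sdc3, Sdc4 and Cd47. Comparing libraries of the same number leaves the differences between groups in place for the syndecans, whose log2 ratios of PH-CM to UNX were 3.07, 2.86 and 2.88 for Sdc1, -0.60, -0.56 and -0.67 for Sdc3, and -0.50, -0.26 and -0.35 for Sdc4. For Cd47, same-number ratios of CO-CM to UNX were 0.18, 0.17 and 0.25, although the groups overlapped. Same-number ratios also had 1 direction where groups overlapped for Spp1 in CO-CM against UNX (0.12, 0.23 and 0.27), and in PH-CM against CO-CM for Sdc3 (0.23, 0.06 and 0.06) and Cd47 (0.18, 0.10 and 0.10). Fn1 in PH-CM against CO-CM had same-number ratios of -0.04, -0.12 and 0.17, with no common direction.

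Promoters of the genes are shown where the levels differ most or where searched letters occur. The windows are the 250 bases before an annotated start, from RefSeq on GRCm38.p6, and 7 of the 10 genes had one. The motifs searched on both strands were AP-1 (TGANTCA), the cyclic AMP response element (TGACGTCA), the hypoxia response core (ACGTG), the PU.1 core (GAGGAA) and the TATA box (TATAAA), none of which contains another. Capitals mark a match, read on the printed strand or as its reverse complement. Vcan is printed as the gene with the largest fold change of the 7, from chr13:89742513-89742762 (minus strand), and Spp1, from chr5:104434861-104435110 (plus strand), as the gene lower in PH-CM than in both other groups. Cd44, from chr2:102901666-102901915 (minus strand), holds the most matches.
Vcan: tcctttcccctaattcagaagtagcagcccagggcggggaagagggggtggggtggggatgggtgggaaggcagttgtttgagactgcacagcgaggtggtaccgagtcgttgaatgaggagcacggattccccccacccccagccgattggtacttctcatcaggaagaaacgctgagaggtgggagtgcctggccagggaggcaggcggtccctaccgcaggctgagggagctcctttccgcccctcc
Spp1: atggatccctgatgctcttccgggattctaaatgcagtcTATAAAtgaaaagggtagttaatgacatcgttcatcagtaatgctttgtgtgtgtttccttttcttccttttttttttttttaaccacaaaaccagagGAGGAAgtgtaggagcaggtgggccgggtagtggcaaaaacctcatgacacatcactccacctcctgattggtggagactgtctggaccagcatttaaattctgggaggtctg
Cd44: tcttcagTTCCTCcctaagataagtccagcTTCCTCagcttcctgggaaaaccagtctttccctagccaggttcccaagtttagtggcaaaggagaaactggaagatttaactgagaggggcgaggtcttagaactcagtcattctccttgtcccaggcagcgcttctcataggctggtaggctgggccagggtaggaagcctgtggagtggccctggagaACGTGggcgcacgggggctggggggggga
In the Vcan window none of the 5 motifs was found, which says only that these letters are not there. The Spp1 window held a TATAAA and a GAGGAA, and the Cd44 window held an ACGTG and 2 matches of GAGGAA on the opposite strand. Over the 7 genes, ACGTG was in 2, GAGGAA in 3, TATAAA in 1 and the others in 0. Of all 32851 promoters of this length, 16.6% held ACGTG, 23.3% GAGGAA, 12.4% TATAAA, 6.75% TGANTCA and 1.55% TGACGTCA. GC content was 62.4% in the Vcan window, 43.6% in that of Spp1 and 56.4% in that of Cd44.

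The genes outside the 10 whose log2 CPM followed Thbs1 most closely over the 9 libraries were Cnpy3, Clec4n, Nus1, Exoc3 and Clec4d (Pearson r from 0.996 to 0.997). Clec4n and Clec4d, which encode C-type lectin receptors of myeloid cells, were at 3.80 and 309 CPM in UNX and at 64.9 and 1261 CPM in PH-CM. Cnpy3, Nus1 and Exoc3 were at 85.2, 125 and 78.8 CPM in UNX and at 132, 218 and 103 CPM in PH-CM. A high r here does not mean a rise as large as that of Thbs1. For Vcan they were Xylt2, Slc7a11, Got1, Nr4a2 and Eva1b (r from 0.994 to 0.997). Xylt2, a xylosyltransferase that starts glycosaminoglycan chains, was at 179 CPM in UNX, 188 in CO-CM and 378 in PH-CM, and Slc7a11, the cystine transporter, at 1.80, 2.46 and 42.0 CPM. For Spp1 they were Rhoc, Vipas39, Anxa1, Egr2 and Anapc15 (r from 0.988 to 0.997), all lowest in PH-CM. Anxa1, the anti-inflammatory annexin, was at 726 CPM in UNX, 826 in CO-CM and 402 in PH-CM. These correlations rest on 3 groups of libraries and are a description. With Spearman's rho in place of r, 0 of the 5 genes named for Thbs1, 0 of those for Vcan and 1 of those for Spp1 were among the 5 closest.

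Partners of the 10 genes were taken from 8 lists of 132 genes, 95 of which passed the filter. Over these lists, 47 genes rose and 21 fell in PH-CM against UNX, 34 rose and 16 fell in CO-CM against UNX, and 32 rose and 20 fell in PH-CM against CO-CM (edgeR quasi-likelihood test, FDR over all genes tested). In the same order, 31.3% and 31.7%, 28.0% and 28.9%, and 12.2% and 15.0% of all genes tested were called. The median log2 fold change of the partners was 0.34, 0.067 and 0.18, beside 0.0072, 0.00024 and -0.0064 over all genes tested. The lists were written with earlier results of these data known, so these counts are a description, and nothing is read from how they compare with the shares over all genes. Genes are named that changed most in each list.

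**Figure D4:**
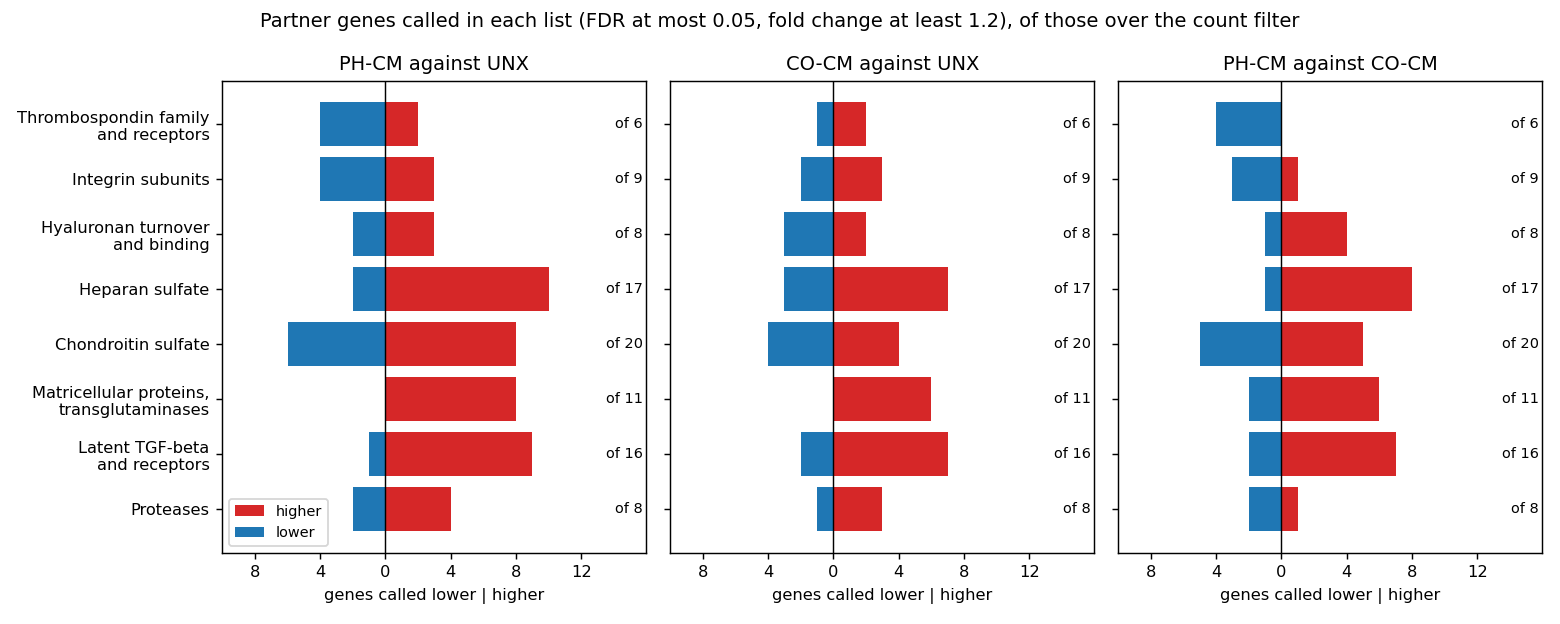
Number of partner genes called higher (right) and lower (left) in each list and comparison, with the number over the count filter at the edge. Matricellular proteins and transglutaminases have 8 of 11 higher and 0 lower in PH-CM against UNX, and the thrombospondin family and receptors have 0 higher and 4 of 6 lower in PH-CM against CO-CM.

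Among other thrombospondins and their receptors, 2 of 6 rose and 4 fell in PH-CM against UNX (median -0.46), 2 rose and 1 fell in CO-CM against UNX, and 0 rose and 4 fell in PH-CM against CO-CM. Thbs2 and Thbs3 were called higher against UNX in both media at means between 1.19 and 3.76 CPM, and Thbs2 was lower in PH-CM than in CO-CM (-0.53, SE 0.17), a call lost without either of CO-CM replicates 1 and 3 or either of PH-CM replicates 2 and 3. The receptor Lrp1 fell by 0.58 on the log2 scale and its partner calreticulin (Calr) by 0.72 in PH-CM against UNX. The scavenger receptor Cd36 fell from 1220.6 ± 59.8 CPM in UNX to 819 in PH-CM (-0.57, SE 0.10) and to 963 ± 138 in CO-CM, where the call was lost without CO-CM replicate 1. Thbs4 and Comp did not pass the filter.

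Of 16 genes of latent TGF-beta and its receptors, 9 rose and 1 fell in PH-CM against UNX, 7 rose and 2 fell in CO-CM against UNX, and 7 rose and 2 fell in PH-CM against CO-CM. Tgfb3 rose by a log2 fold change of 1.61 (SE 0.28) in PH-CM against UNX, from 1.64 to 5.00 CPM. The far more abundant Tgfb1 was at 548 CPM in UNX and 521 in PH-CM (-0.074, SE 0.059). Tgfb2 gave 0.13 (SE 0.24), and neither Tgfb1 nor Tgfb2 was called. Skil, a SMAD co-repressor induced by TGF-beta, rose in PH-CM (1.63, SE 0.28) and in CO-CM (1.36, SE 0.28) against UNX. Tgfbi, a secreted TGF-beta-induced protein, was at 364 CPM in UNX, 222 in CO-CM and 549 in PH-CM. The receptor Tgfbr1 rose against UNX in CO-CM (1.29, SE 0.08) and in PH-CM (0.77, SE 0.08), with PH-CM lower than CO-CM (-0.53, SE 0.08), Nrros fell in CO-CM (-0.62, SE 0.05) and gave -0.0041 (SE 0.049) in PH-CM against UNX, and Eng fell in PH-CM against UNX (-0.37, SE 0.09) and CO-CM.

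Other matricellular proteins and transglutaminases had 8 of 11 genes higher and 0 lower in PH-CM against UNX (median 1.23), 6 higher and 0 lower in CO-CM against UNX, and 6 higher and 2 lower in PH-CM against CO-CM. Ecm1 rose from 86.2 ± 8.62 to 235 ± 19.5 CPM in PH-CM (log2 fold change 1.45, SE 0.10). F13a1, the transglutaminase subunit of clotting factor XIII that macrophages make, was at 13.9 ± 7.03 CPM in UNX and 53.8 ± 29.8 in PH-CM, and its call against CO-CM was lost without CO-CM replicate 3 or PH-CM replicate 2. Mfge8, which bridges apoptotic cells and integrins, was highest in CO-CM at 310 ± 18.8 CPM (2.00, SE 0.10, against UNX) and also rose in PH-CM (1.23, SE 0.10). Postn was also highest in CO-CM, at 6.91 ± 1.40 CPM, and Ccn1 was higher in PH-CM than in CO-CM (0.90, SE 0.20).

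Of 9 integrin subunits, 3 rose and 4 fell in PH-CM against UNX, beside 31.3% and 31.7% of all genes tested. In CO-CM against UNX, 3 rose and 2 fell, beside 28.0% and 28.9%. In PH-CM against CO-CM, 1 rose and 3 fell, beside 12.2% and 15.0%. Nothing is read from these counts. Itgb5 rose in both media, by 0.90 (SE 0.07) in PH-CM and 0.96 (SE 0.07) in CO-CM. Itgb3 was at 12.8 CPM in UNX and rose to 57.0 in CO-CM and 17.8 in PH-CM, and was lower in PH-CM than in CO-CM (log2 fold change -1.68, SE 0.10). Itga9 fell in CO-CM (-1.55, SE 0.13) and rose in PH-CM (0.68, SE 0.12), while Itga8 fell in both and Itga6 in PH-CM.

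Of the heparan sulfate genes, 10 of 17 rose and 2 fell in PH-CM against UNX, led by the glypican Gpc1 (1.61, SE 0.11) and the sulfatase Sulf1 (1.52, SE 0.16), with Hs6st1 and Extl3 falling. In CO-CM against UNX, 7 rose and 3 fell, with the heparanase gene Hpse (1.39, SE 0.14) and Ndst1 (0.77, SE 0.09) rising most, both of which rose in PH-CM too (1.11 and 0.95), and Ext1 and Sulf2 falling. Sulf2 rose in PH-CM against UNX (0.30, SE 0.06). In PH-CM against CO-CM, 8 rose and 1 fell, and Sdcbp (syntenin, which binds syndecan tails) was the gene that fell (-0.31, SE 0.05). Of the chondroitin sulfate genes, 8 of 20 rose and 6 fell in PH-CM against UNX, 4 rose and 4 fell in CO-CM against UNX, and 5 rose and 5 fell in PH-CM against CO-CM. In PH-CM against UNX, the initiating enzymes Csgalnact1 (2.16, SE 0.27) and Xylt2 (1.08, SE 0.05) rose, and the sulfotransferases Chst3 (-1.96, SE 0.12) and Chst11 (-1.74, SE 0.15) fell. Csgalnact1 was low throughout, at a mean of 0.404 CPM in UNX, 0.510 in CO-CM and 1.84 in PH-CM, and passed the filter of 1 CPM only through the PH-CM libraries, as did Adamts5. Thbs3, Has2 and Chst15 also averaged below 1 CPM in UNX and passed through the groups where they were high. The calls of these 5 genes are given as values, and nothing is read from them. Against UNX, Chst11 fell in CO-CM as well, B3galt6 fell in CO-CM (-0.66, SE 0.07) and PH-CM (-0.64, SE 0.07), and Xylt1 (1.38 and 1.06) and Chst15 (0.80 and 0.98) rose in both media. Against CO-CM, PH-CM had more serglycin mRNA (Srgn, 1.11, SE 0.14) and less Chst3 (-1.85, SE 0.12) and Cspg4 (-1.35, SE 0.17), and Csgalnact1 gave 1.85 (SE 0.26).

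Of 8 hyaluronan genes over the filter, 3 rose and 2 fell in PH-CM against UNX, 2 rose and 3 fell in CO-CM against UNX, and 4 rose and 1 fell in PH-CM against CO-CM. The synthase Has2 rose from 0.65 CPM in UNX to 2.63 in PH-CM (2.02, SE 0.24), while its call in CO-CM was lost when any of 4 libraries (UNX replicates 2 and 3, CO-CM replicates 1 and 3) was left out. Hmmr, a hyaluronan-binding protein of the mitotic spindle, fell from 80.0 CPM in UNX to 17.6 in CO-CM and 10.4 in PH-CM, and Cemip2 fell in both media. Stab1 was higher in PH-CM than in CO-CM (1.09, SE 0.07), and Stab2, at 1.92 to 4.50 CPM, was called higher against UNX in both media, though in PH-CM the call was lost without UNX replicate 1 or either of PH-CM replicates 2 and 3.

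Of 8 genes in the list of proteases, 4 rose and 2 fell in PH-CM against UNX. In CO-CM against UNX 3 rose and 1 fell, and in PH-CM against CO-CM 1 rose and 2 fell. Plau, the urokinase gene, fell from 808 ± 109 CPM in UNX to 120 ± 52.7 in CO-CM and 32.3 ± 2.88 in PH-CM (log2 fold change -4.65, SE 0.30, in PH-CM against UNX). Mmp14 rose in PH-CM (1.29, SE 0.13) and CO-CM (1.06, SE 0.13) against UNX, and so did Mmp2 (1.09, SE 0.16, and 0.66, SE 0.16). The versican-cutting protease Adamts5 rose in PH-CM against UNX from 0.689 to 1.90 CPM, Mmp9 fell from 2.21 to 1.59 CPM with a call lost without any of 3 libraries (UNX replicate 3, PH-CM replicates 1 and 2), and Adam17 rose against UNX in CO-CM (0.58) and PH-CM (0.28), with a call in PH-CM against CO-CM that was lost without CO-CM replicate 2.

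Markers of macrophages (8 of 8 genes over the filter) summed to 11631 to 12475 CPM in UNX, 19077 to 20024 in CO-CM and 21053 to 22760 in PH-CM. Lyz2 led this sum. Without Lyz2 they summed to 4787 to 4930 CPM in UNX, 6319 to 7008 in CO-CM and 6589 to 7288 in PH-CM. In CO-CM against UNX, Itgam (-0.22) and Fcgr1 (-0.15) were lower and the others of the list higher. In PH-CM against CO-CM, Adgre1 (-0.18) and Cd68 (-0.24) were lower and the others higher. Fibroblast markers, which bear on Fn1, Vcan and Thbs1, had 9 of 12 genes over the filter, led by Col1a1, and summed to 224 to 284 CPM in UNX, 303 to 359 in CO-CM and 295 to 389 in PH-CM. Between PH-CM and CO-CM, the log2 fold change was 0.020 for Col1a1, 0.72 for Col3a1, 0.54 for Col6a3, 0.53 for Dcn, 0.45 for Col5a1, 0.17 for Pdgfra, 0.087 for Pdgfrb, -0.061 for Col1a2 and -0.70 for Postn. Platelet markers, which bear on Thbs1, had 4 of 10 genes over the filter and summed to 153 to 178, 114 to 144 and 226 to 279 CPM, led by Pf4. Without Pf4 they summed to 3.73 to 4.34 CPM in UNX, 6.75 to 9.11 in CO-CM and 8.15 to 11.1 in PH-CM. Ppbp among them was at a mean of 0.326, 0.0583 and 3.82 CPM, Treml1 at 2.51, 6.53 and 4.32 CPM, and Gp1ba at 0.869, 1.23 and 1.15 CPM. In PH-CM against CO-CM, the log2 fold change was 6.00 for Ppbp, 1.01 for Pf4, -0.091 for Gp1ba and -0.60 for Treml1. Ppbp had 12 reads in CO-CM and 734 in PH-CM. It passed the filter only through the PH-CM libraries, so nothing is read from its fold change. Gp6 had 0 reads in every library. Osteoclast markers, which bear on Spp1 and Cd44, had 4 of 8 genes over the filter, summed to 86.9 to 235, 418 to 679 and 278 to 416 CPM, led by Atp6v0d2, and Calcr had 0 reads. Without Atp6v0d2 they summed to 17.4 to 30.4 CPM in UNX, 36.3 to 55.9 in CO-CM and 48.0 to 68.3 in PH-CM. Endothelial markers, which also bear on Thbs1, had 3 of 7 genes over the filter and summed to 142 to 181, 408 to 480 and 310 to 329 CPM, led by Vwf, and Cldn5 had 0 reads. Without Vwf they summed to 33.1 to 43.9 CPM in UNX, 16.4 to 20.5 in CO-CM and 55.0 to 64.4 in PH-CM. Markers of neutrophils, dendritic cells and T and B cells summed to at most 17.1 CPM per list in any library. The part of such other cells in the levels of the 10 genes was not tested.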

How the data were processed

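RNA-Seq of 9 BMDM libraries in 3 groups was analysed, with groups and replicate numbers from the labels. The authors used STAR for the alignment to GRCm38 and featureCounts 1.6.2 for the counts over exons. The deposited counts are whole, raw numbers of reads. The deposited RPKM values are these counts scaled by the authors to exon length and counted reads. The authors' comparison tables hold their log2 fold changes and p-values and were not used. The 10 genes and the lists were chosen with earlier results of these data known.

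Of all genes, 11950 reached more than 1 CPM in 3 or more libraries and were TMM-normalized and fitted with the quasi-likelihood test of edgeR 4.0.16 in R 4.3.3, with Benjamini-Hochberg adjustment, after the fit had been tested on simulated data. Of each list and comparison, the called genes with the largest log2 fold change were named, at most 2 higher and 2 lower. Promoters came from RefSeq and positions from GENCODE on GRCm38. Identifiers matched reference names for 53274 of 53465 genes. Libraries with the same number deviated together from their group means in every pair. Their r across genes ran from 0.276 to 0.484, and that of other pairs from -0.376 to 0.0423. Ratios between libraries of the same number are therefore also given. The fold changes, SEs and calls came from a model of the groups that left this number out. The number entered only the alternative named the replicate block. The labels do not say what a number marks. The alternatives were DESeq2 1.42.0, edgeR's exact test, other scalings and filters, fits of the 2 groups alone, the replicate block, counts divided by 2, fold thresholds of 2 or none, and each library left out in turn. Protein features were not analysed here.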

Additional observations from a re-analysis of the deposited data

How the results depend on the processing

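With the replicate block, 7714, 7037 and 3632 genes were called in PH-CM against UNX, CO-CM against UNX and PH-CM against CO-CM, beside 7534, 6806 and 3244 without it, and no call of the 10 genes changed. Partner genes called in the same order numbered 72, 54 and 61 with the block, beside 68, 50 and 52 without it. Most counts that moved by over 1.5 times came from a fold change threshold of 2 in place of 1.2, which by its construction leaves fewer genes. In PH-CM against UNX it left 2153 genes in all, 4 of the 10 genes and 30 partner genes, of which 1 was in the thrombospondin list, 2 were integrins, 2 hyaluronan genes, 3 heparan sulfate genes, 8 chondroitin sulfate genes and 4 TGF-beta genes. In CO-CM against UNX it left 1655 genes, 3 of the 10 and 17 partner genes, of which 1 was in the thrombospondin list, 3 were integrins, 3 hyaluronan genes, 1 a heparan sulfate gene, 2 chondroitin sulfate genes, 2 matricellular genes, 3 TGF-beta genes and 2 proteases. In PH-CM against CO-CM it left 612 genes, 4 of the 10 and 17 partner genes, of which 0 were in the thrombospondin list, 2 were integrins, 2 hyaluronan genes, 2 heparan sulfate genes, 6 chondroitin sulfate genes, 1 a matricellular gene and 2 TGF-beta genes. Without a filter on low counts, 8 hyaluronan genes and 5 proteases were called in PH-CM against CO-CM, where genes with few reads were tested too. Of 300 fold changes of the 10 genes under other settings, 3 moved by more than the spread between replicates, all of Cd44, and none of the 270 with a library left out did. No called fold change of the 10 genes changed direction under any alternative. Scaling moved the median of all genes by at most 0.070. The fewest reads of the 10 genes were those of Vcan outside PH-CM, at 208 to 360 per library.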
